A study of Mus musculus with 7 samples.

Results

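The TNF superfamily is described here as 37 protein-coding genes, 16 ligands and 21 receptors, of the 49671 genes in the deposited count table. They were taken by name: every gene whose symbol starts with Tnfsf or Tnfrsf followed by a digit, together with Tnf, Lta, Ltb, Ltbr, Fas, Fasl, Cd40, Cd40lg, Cd70, Eda2r and Ngfr. The RANK ligand, its receptor and its decoy (Tnfsf11, Tnfrsf11a and Tnfrsf11b) and the B-cell receptors Tnfrsf13c and Tnfrsf17 were left out. The libraries hold mRNA of whole femurs of wild-type mice, crushed so that bone, cartilage, marrow and any attached tissue are mixed. The groups were 4 libraries taken 3 days after traumatic brain injury (TBI) by controlled cortical impact (a device strikes the brain surface), and 3 libraries of uninjured controls. Strain, age and whether the control mice had any surgery are not given in the labels, so the impact cannot be told apart from the operation around it. The labels do not say that each library came from a different mouse, and p-values then measure only the spread between these libraries.

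Ligands of this family are mostly trimeric proteins of the cell surface that can be shed, and their receptors carry cysteine-rich repeats outside the cell. Receptors with a death domain can start caspase-driven cell death, while the others mainly bind TRAF adapters and activate NF-kB, and a few are decoys that bind ligand without signalling. In bone and marrow the family is known for inflammation (TNF), B-cell survival (BAFF, the product of Tnfsf13b), lymphoid organization (lymphotoxins) and the removal of activated cells (FAS and TRAIL).

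Total counts ran from 20470241 to 21783534 in TBI libraries and from 15461528 to 20675655 in controls, and the 37 genes took 0.0337% to 0.0536% of them after TBI and 0.0377% to 0.046% in controls. A single count was worth 0.0426 to 0.0542 CPM in TBI libraries and 0.0451 to 0.063 CPM in controls. CPM here are counts scaled to library size with TMM factors. Markers of osteoblasts, which define bone, such as Col1a1 and Alpl, were abundant, with a summed level of 11280 to 15750 CPM after TBI and 16960 to 29120 CPM in controls. The libraries differed in make-up. Skeletal muscle markers summed to 20790, 32560, 88040 and 110200 CPM in TBI 1 to 4 and 17290, 33520 and 59710 CPM in controls 1 to 3. Neutrophil markers summed to 9648, 6222, 1941 and 5167 CPM in TBI 1 to 4 and 4042, 2864 and 2785 CPM in controls 1 to 3. In bulk RNA, more cells of a type and more RNA per cell cannot be told apart.

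Of the 37 members, 31 passed the filter on low counts, 10 of the 16 ligands and all 21 receptors. The filter asked for about 0.484 unscaled CPM in at least 3 libraries, and 2 members, Lta and Tnfrsf8, passed it through the TBI libraries alone. The mRNA of receptors reached the higher levels. On the scale of CPM per kilobase of exon, averaged over all 7 libraries, receptors ran from 0.216 (Tnfrsf8) to 54.3 (Tnfrsf14) with a median of 1.73, and ligands from 0.351 (Lta) to 5.91 (Ltb) with a median of 1.32. Tnfrsf14 (HVEM, a receptor for the ligand LIGHT) stood first, followed by Tnfrsf1a (24.1), which encodes the broadly expressed TNF receptor, Ltbr (13.7), the lymphotoxin beta receptor, Tnfrsf21 (10.9), a death domain receptor, and Tnfrsf1b (9.59), the second TNF receptor, known from leukocytes. The libraries of Ltbr, Tnfrsf21 and Tnfrsf1b overlap with those of the next gene in that order. Among ligands Ltb was followed by Tnfsf14 (5.56), which encodes LIGHT, Tnfsf12 (4.32), which encodes TWEAK, Tnfsf10 (2.21), which encodes TRAIL, and Tnf itself (1.67); the libraries of Ltb, Tnfsf14 and Tnfsf12 overlap. In 10 of the 13 ligand and receptor pairs with both partners tested, the receptor had the higher level on this scale.

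**Figure D1:**
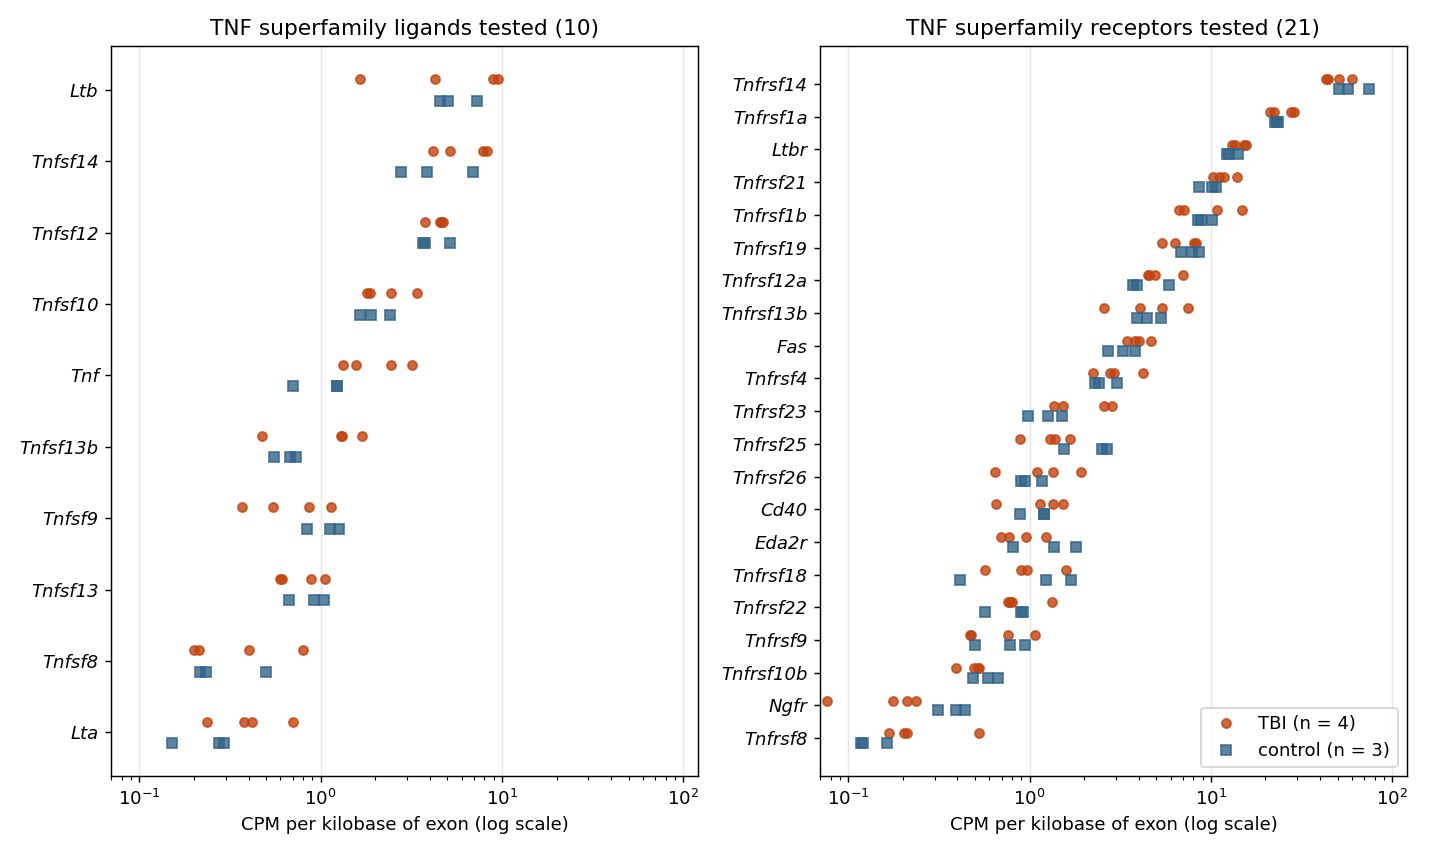
Level of each tested member in CPM per kilobase of exon (log axis), ligands left and receptors right, with 1 point per library (circles, 4 TBI; squares, 3 control). Tnfrsf14 and Tnfrsf1a lie highest among receptors and Ltb and Tnfsf14 among ligands, and in most rows the circles and squares overlap.

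The comparison asks whether a brain injury is followed by changes in these signals in a distant bone. With edgeR's quasi-likelihood test and adjustment over 17144 genes, 0 members passed the threshold of 0.05, beside 0% of all genes. The smallest adjusted p of a member was 0.609, so the members are given as values. At an unadjusted p under 0.05 there were 4 members, 12.9% of the 31 tested, beside 7.34% of all genes: Tnf and Tnfrsf23 with higher and Ngfr and Tnfrsf25 with lower estimates after TBI. DESeq2 called 0 members adjusted over all genes, of 103 genes called, and had 5 members at an unadjusted p under 0.05 (16.1%, beside 8.06% of all genes). The count at an unadjusted p under 0.05 was 0 of 32 tested members without control 3, beside 5.67% of all genes. It was 12 of 32 without TBI 3 and TBI 4, the libraries with the most muscle mRNA, beside 11.6% of all genes, a setting chosen after seeing the data.

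Estimates were higher after TBI for 21 of the 31 members (67.7%) and for 54.4% of all genes. The median log2 fold change was 0.12 over the members and 0.03 over all genes. Ligands had 8 of 10 higher, with a median of 0.30, and receptors 13 of 21 higher, with a median of 0.11. Without Lta and Tnfrsf8, 19 of 29 members were higher at a median of 0.12. The balance rests on 1 library: without TBI 1, 15 of 30 tested members were higher, at a median of −0.01. Over all genes 50.5% were higher in that setting, at a median of 0.003. The median of the ligands moved to 0.85 without control 1, to 0.49 without TBI 3 and to 0.14 without TBI 1. Leaving out TBI 1, 2, 3 or 4 in turn put the median of the receptors at −0.06, 0.05, 0.19 and 0.17.

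**Figure D2:**
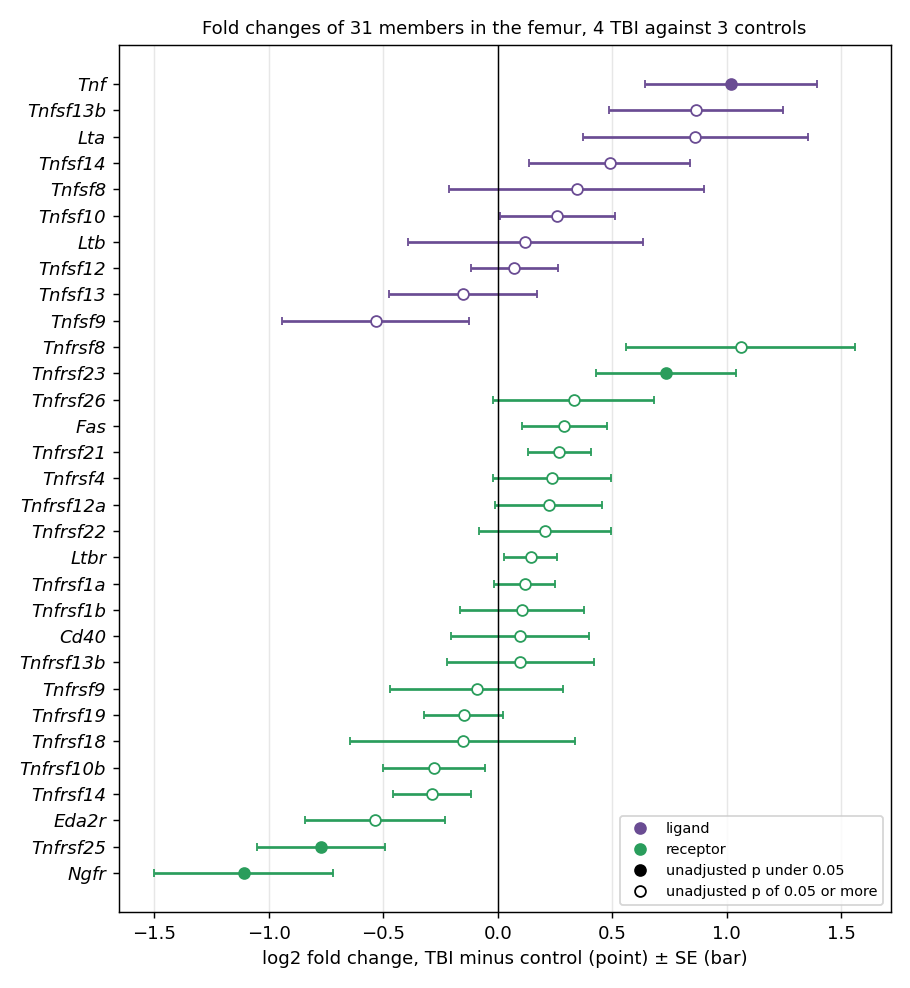
Log2 fold change, TBI minus control, of the 31 tested members (points) with its standard error (bars), ligands above receptors; filled points had an unadjusted p under 0.05 in edgeR's quasi-likelihood test. Tnf (1.02) tops the ligands and Ngfr (−1.11) lies lowest. Tnfrsf8 (1.06) tops the receptors but passed the filter on low counts through the TBI libraries alone.

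Tnf, the cytokine that gave the family its name (ENSMUSG00000024401, GRCm38 chromosome 17, 35199381 to 35202007, minus strand), had 5.26, 4.00, 2.17 and 2.58 CPM in TBI 1 to 4, against 2.03, 2.02 and 1.15 CPM in controls 1 to 3. Every TBI library lay above every control, by little in TBI 3, and 2.66% of all genes did the same. These levels rest on 40 to 121 counts per TBI library and 22 to 45 per control. The mean was 3.50 ± 1.41 CPM after TBI (SD, n = 4) and 1.73 ± 0.507 CPM in controls (SD, n = 3). This is a log2 fold change of 1.02 ± 0.38 (SE), an unadjusted p of 0.0251 and an adjusted p of 0.617 in edgeR's quasi-likelihood test. Leaving out 1 library kept the estimate between 0.76 (without TBI 1) and 1.19 (without TBI 3).

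Within the TBI group Tnf was highest in TBI 1 and lowest in TBI 3. The same holds for the neutrophil, monocyte, B-cell, plasma cell and dendritic cell marker sums, so it is not particular to any of these lists. The T and NK cell sum was highest in TBI 1 and lowest in TBI 4. Of the 10 neutrophil markers 9 had higher estimates, 0 were at 0 counts and the sums overlapped between the groups. The monocyte and macrophage markers, such as Csf1r and Ly6c2, summed to 930.4, 618.3, 389.1 and 491.8 CPM in TBI 1 to 4 and 575.5, 469 and 426.3 CPM in controls 1 to 3, with 8 of 10 estimates higher and 0 at 0 counts. Their part in the Tnf values was not tested.

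The receptors of TNF had estimates near 0 and overlapping groups. Tnfrsf1a, which carries a death domain, had 74.2, 71.5, 57.8 and 54.9 CPM in TBI 1 to 4, against 58.6, 60.4 and 59.6 CPM in controls. TBI 1 and 2 lay above the controls and TBI 3 and 4 below them, and the log2 fold change was 0.12 ± 0.13 (adjusted p = 0.816 in edgeR). Tnfrsf1b, which lacks one, had 56.9, 41.3, 27.2 and 25.5 CPM in TBI 1 to 4, against 38.9, 32.6 and 33.7 CPM in controls. It showed the same split, at 0.11 ± 0.27 (adjusted p = 0.926 in edgeR), and at −0.16 without TBI 1.

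Lta and Ltb, which encode the lymphotoxins, flank Tnf on chromosome 17 (35203165 to 35205351, minus strand, and 35194439 to 35196320, plus strand). Lta was scarce, with 0.521, 0.979, 0.325 and 0.58 CPM in TBI 1 to 4 and 0.406, 0.378 and 0.209 CPM in controls, or 6 to 23 counts after TBI and 4 to 9 in controls. Its groups overlapped at a log2 fold change of 0.86 ± 0.49, and it passed the filter through the TBI libraries alone. Ltb had 14.5, 13.6, 2.49 and 6.48 CPM in TBI 1 to 4, against 11.1, 7.69 and 6.88 CPM in controls, at 0.12 ± 0.51. TBI 1 and 2 were above all controls and TBI 3 and 4 below them, and leaving out TBI 1, TBI 2 or control 3 turned the sign (−0.17, −0.13 and −0.02). Ltbr, the receptor through which the membrane form of lymphotoxin acts, was even across libraries: 35.7, 36.7, 30.6 and 31.8 CPM after TBI and 28.7, 33.1 and 29.8 CPM in controls (0.14 ± 0.12, adjusted p = 0.771 in edgeR).

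LIGHT, encoded by Tnfsf14, is a ligand of activated lymphocytes that shares Ltbr and binds Tnfrsf14. Tnfsf14 had 15.2, 14.5, 7.65 and 9.54 CPM in TBI 1 to 4, against 12.8, 5.11 and 7.09 CPM in controls. Control 1 lay among the TBI libraries, and the log2 fold change was 0.49 ± 0.35, or 0.94 without control 1 and 0.24 without control 2. Tnfrsf14 had 86.4, 62.4, 73.2 and 63.6 CPM in TBI 1 to 4, against 107, 81.8 and 72.7 CPM in controls, with overlapping groups at −0.29 ± 0.17 (adjusted p = 0.753 in edgeR), and −0.11 without control 1.

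BAFF, the B-cell survival factor encoded by Tnfsf13b (ENSMUSG00000031497, chromosome 8, 10006467 to 10039072, plus strand), had 11.6, 8.9, 3.25 and 9.01 CPM in TBI 1 to 4, against 5.05, 4.67 and 3.81 CPM in controls. Of the TBI libraries, 3 were above every control and TBI 3 was below them all. Means were 8.20 ± 3.53 CPM after TBI (SD, n = 4) and 4.51 ± 0.639 CPM in controls (SD, n = 3), a log2 fold change of 0.86 ± 0.38 with an adjusted p of 0.68 in edgeR's quasi-likelihood test. TBI 3 was also the lowest library in the neutrophil, monocyte, plasma cell and dendritic cell sums. The same held for the B-cell markers (Ms4a1, Cd79a and others). These summed to 198.2, 150.5, 42.4 and 150.6 CPM in TBI 1 to 4 and 260.8, 157.5 and 236.9 CPM in controls, with 10 of 10 estimates lower and 0 markers at 0 counts, and their part in the BAFF values was not tested. APRIL, the related ligand encoded by Tnfsf13, had 1.74, 1.45, 0.976 and 1 CPM after TBI and 1.71, 1.51 and 1.09 CPM in controls (−0.15 ± 0.32). Tnfsf13 and its neighbour Tnfsf12 both overlap the annotated fusion gene Tnfsfm13 and the opposite-strand gene Tnfsf13os, so their counts are uncertain. Tnfrsf13b, which encodes TACI, a B-cell receptor of both ligands, had 21.3, 15.3, 7.27 and 11.5 CPM after TBI and 15.1, 11.1 and 12.6 CPM in controls. Its groups overlapped at 0.10 ± 0.32, and the estimate was −0.18 without TBI 1.

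**Figure D3:**
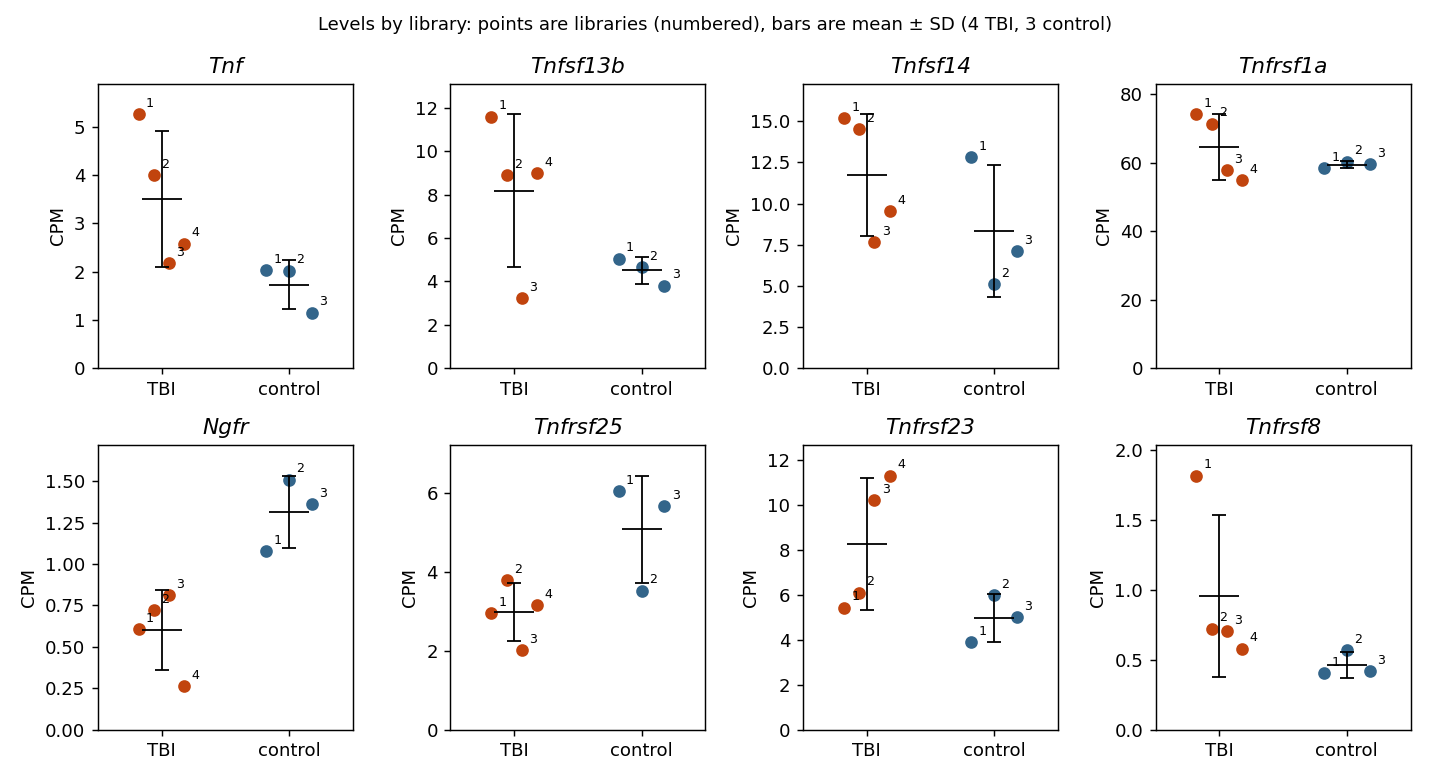
CPM of 8 members by library (numbered points), TBI left of control, with the mean and SD as bars (4 TBI and 3 control libraries). The groups do not overlap for Tnf, Ngfr and Tnfrsf8, and TBI 1 stands apart for Tnfrsf8. Of the 31 tested members, 2 had every TBI library above every control and 1 had every one below. The shares over all genes were 2.66% and 5.38%.

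Ngfr, the low-affinity neurotrophin receptor with a death domain that is known from Schwann cells and some stromal cells (ENSMUSG00000000120, chromosome 11, 95568818 to 95587735, minus strand), had lower levels in each TBI library than in any control, as did 5.38% of all genes. It had 0.608, 0.724, 0.813 and 0.263 CPM in TBI 1 to 4, against 1.08, 1.51 and 1.36 CPM in controls 1 to 3. That is 5 to 17 counts per TBI library and 24 to 26 per control, so counting error alone is wide. The means were 0.602 ± 0.241 CPM after TBI (SD, n = 4) and 1.32 ± 0.217 CPM in controls (SD, n = 3). The log2 fold change was −1.11 ± 0.39, with an unadjusted p of 0.0206 and an adjusted p of 0.609 in edgeR's quasi-likelihood test, and it stayed between −1.27 (without TBI 3) and −0.87 (without TBI 4).

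Markers of Schwann cells (Sox10, Prx and others) summed to 112.4 to 156 CPM after TBI and 131.1 to 137.2 CPM in controls, with 4 of 6 estimates higher and 0 at 0 counts. Osteoblast markers had lower estimates for 10 of 10. Their part in the Ngfr values was not tested.

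Tnfrsf25, which encodes DR3, a death domain receptor of lymphocytes (ENSMUSG00000024793, chromosome 4, 152115934 to 152120119, plus strand), had 2.95, 3.79, 2.01 and 3.16 CPM in TBI 1 to 4, against 6.05, 3.53 and 5.68 CPM in controls. Control 2 lay within the TBI range and the other controls above it. Means of 2.98 ± 0.739 CPM after TBI (SD, n = 4) and 5.09 ± 1.36 CPM in controls (SD, n = 3) gave a log2 fold change of −0.77 ± 0.28, with an unadjusted p of 0.0231 and an adjusted p of 0.615 in edgeR's quasi-likelihood test. Its ligand gene Tnfsf15 had 0 to 2 counts per TBI library and 0 to 3 per control. T and NK cell markers (Cd3e, Ncr1 and others) summed to 41.4, 25.8, 15 and 13.1 CPM in TBI 1 to 4 and 27.4, 19.9 and 20.2 CPM in controls, with 7 of 10 estimates higher and 0 at 0 counts. In the B-cell sums given above, with 10 of 10 estimates lower, control 2 was likewise the lowest control and TBI 3 the lowest library. Control 2 was also the lowest control in the T and NK cell sum. TBI 3 was also the lowest library in the neutrophil, monocyte, plasma cell and dendritic cell sums. Of the TBI libraries, Tnfrsf25 was highest in TBI 2 and the B-cell sum in TBI 1. The part of any of these lists in the Tnfrsf25 values was not tested.

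The other death domain receptors had overlapping groups. Fas, the receptor that triggers death of activated lymphocytes, had 9.64, 7.83, 7.1 and 8.22 CPM after TBI and 6.72, 5.55 and 7.82 CPM in controls (0.29 ± 0.19, adjusted p = 0.763 in edgeR). Its ligand gene Fasl, known from T and NK cells, did not pass the filter, with 20, 11, 6 and 8 counts in TBI 1 to 4 and 7, 4 and 3 counts in controls. In CPM that is 0.869, 0.468, 0.325 and 0.422 after TBI and 0.316, 0.252 and 0.156 in controls, each TBI library above each control, by very little in TBI 3. With no filter its log2 fold change was 1.09 ± 0.60 and its adjusted p 0.763 in edgeR. Tnfrsf21, which encodes DR6, had 57.1, 45.8, 42.2 and 48.7 CPM after TBI and 43.9, 35.1 and 41.5 CPM in controls. Only TBI 3 lay below a control, and the fold change was 0.27 ± 0.14 (adjusted p = 0.723 in edgeR).

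TRAIL, encoded by Tnfsf10, is a death ligand with a single signalling receptor in mice, Tnfrsf10b, and with decoys. Tnfsf10 had 12.9, 9.88, 17.8 and 9.54 CPM in TBI 1 to 4, against 8.67, 12.7 and 10 CPM in controls, at 0.26 ± 0.25 and 0.05 without TBI 3. Tnfrsf10b had 2.13, 2.68, 2.82 and 2.85 CPM after TBI and 2.66, 3.22 and 3.65 CPM in controls (−0.28 ± 0.22), also overlapping. The decoy receptor gene Tnfrsf23 (ENSMUSG00000037613, chromosome 7, 143665809 to 143685872, minus strand) had 5.43, 6.09, 10.2 and 11.3 CPM in TBI 1 to 4, against 3.88, 5.99 and 5 CPM in controls. TBI 3 and 4 stood high and TBI 1 lay below control 2. The means were 8.25 ± 2.92 CPM after TBI (SD, n = 4) and 4.96 ± 1.05 CPM in controls (SD, n = 3), a log2 fold change of 0.73 ± 0.31 with an unadjusted p of 0.0411 and an adjusted p of 0.666 in edgeR's quasi-likelihood test.

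TBI 3 and 4 are also the libraries with the largest muscle sum, where 10 of 10 markers had higher estimates and 0 were at 0 counts. Without both of them, the Tnfrsf23 value was 0.20, a setting chosen after seeing the data. They hold its highest levels, so leaving them out lowers the estimate whatever the cause. Tnfrsf23 and the muscle sum both rose from TBI 1 to TBI 4. In controls 1 to 3 the muscle sum was 17290, 33520 and 59710 CPM, and Tnfrsf23 was at 3.88, 5.99 and 5 CPM. The part of muscle in the Tnfrsf23 values was not tested. Tnfrsf22 (0.21 ± 0.29, and −0.02 without TBI 3), the other decoy, and Tnfrsf26 (0.33 ± 0.35) are neighbours of Tnfrsf23 within the same stretch of chromosome 7. These related genes can share reads, and all 3 overlap the opposite-strand gene E230032D23Rik, so the split of counts between them is uncertain.

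The window before the start of each of the 4 members at an unadjusted p under 0.05 is shown so that their promoters can be compared. Each is the 250 bases before the RefSeq start, 5′ to 3′ on the gene's strand, on GRCm38.p6. The RefSeq start of Ngfr lies inside the GENCODE gene, so the last 37 bases of its window were left out and 213 are shown. The windows are chr17:35202008-35202257 (minus strand) for Tnf, chr11:95587736-95587948 (minus) for Ngfr, chr4:152115684-152115933 (plus) for Tnfrsf25 and chr7:143685876-143686125 (minus) for Tnfrsf23. Capitals mark TATAAA and GGGCGG, the GC box, searched on both strands. The searched motifs TGANTCA and GGGRNNYYCC, the NF-kB consensus, had no exact match in these 4 windows. In them R is A or G, Y is C or T and N is any base. Looser matches and bases further upstream were not searched.
Tnf: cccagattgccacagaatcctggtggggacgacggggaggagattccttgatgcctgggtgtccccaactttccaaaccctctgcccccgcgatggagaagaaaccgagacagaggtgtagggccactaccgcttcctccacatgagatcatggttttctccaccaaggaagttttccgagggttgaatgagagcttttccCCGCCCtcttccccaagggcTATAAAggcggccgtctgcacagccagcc
Ngfr: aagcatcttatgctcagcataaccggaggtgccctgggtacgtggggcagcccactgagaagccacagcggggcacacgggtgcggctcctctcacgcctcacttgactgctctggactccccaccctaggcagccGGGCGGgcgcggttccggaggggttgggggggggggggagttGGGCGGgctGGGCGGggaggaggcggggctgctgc
Tnfrsf25: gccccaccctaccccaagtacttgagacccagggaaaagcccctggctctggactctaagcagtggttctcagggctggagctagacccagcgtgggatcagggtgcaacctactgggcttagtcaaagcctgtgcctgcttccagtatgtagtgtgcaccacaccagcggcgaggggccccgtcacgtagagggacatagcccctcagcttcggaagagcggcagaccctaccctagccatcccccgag
Tnfrsf23: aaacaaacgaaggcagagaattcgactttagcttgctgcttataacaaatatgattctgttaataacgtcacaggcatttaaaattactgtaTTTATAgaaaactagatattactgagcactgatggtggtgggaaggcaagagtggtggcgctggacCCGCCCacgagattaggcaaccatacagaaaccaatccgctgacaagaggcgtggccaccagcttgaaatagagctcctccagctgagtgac

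Tnf held 1 TATAAA that begins at position −29 counted back from the RefSeq start and 1 GC box at −49. Ngfr had 3 GC boxes in its 213 bases, no TATAAA and 70.9% G and C, against a median of 52.4% over the full windows of all genes in the RefSeq table (32851 windows). Tnfrsf23 had 1 TATAAA at −158, 1 GC box at −92 and 44.8% G and C. Tnfrsf25 had neither motif, at 61.6% G and C. Of all windows 12.4% held TATAAA, 32.7% the GC box, 6.75% TGANTCA and 7.25% the NF-kB consensus. Windows were listed for 28 of the 37 members (32 windows), where the shares were 15.6%, 43.8%, 18.8% and 12.5%. A match is a stretch of letters and does not show that a factor binds there.

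Several members act in the help that T cells and antigen-presenting cells give each other. Cd40, the receptor of antigen-presenting cells for T-cell help, had 5.21, 4.56, 2.22 and 3.9 CPM after TBI and 3.02, 4.1 and 4.07 CPM in controls (0.10 ± 0.30), and the sign turned without TBI 1 or without control 1. Its ligand gene Cd40lg had 2, 0, 1 and 3 counts in TBI 1 to 4 and 2, 1 and 0 counts in controls. Tnfrsf8, which encodes CD30 of activated lymphocytes, had 1.82, 0.724, 0.705 and 0.58 CPM after TBI and 0.406, 0.567 and 0.417 CPM in controls, or 11 to 42 counts per TBI library and 8 to 9 per control. Every TBI library lay above every control, as for 2.66% of all genes, but Tnfrsf8 passed the filter through the TBI libraries alone. Its log2 fold change of 1.06 ± 0.50 (adjusted p = 0.698 in edgeR) was 0.54 without TBI 1. Tnfsf8, which encodes the ligand of CD30, had a log2 fold change of 0.34 ± 0.56, which was −0.24 without TBI 1 and 0.85 without control 1. Tnfrsf4, which encodes the costimulatory receptor OX40, stood at 0.24 ± 0.26. Tnfrsf18, which encodes the receptor GITR of regulatory T cells, stood at −0.15 ± 0.49, the costimulatory receptor gene Tnfrsf9 at −0.09 ± 0.38 and its ligand gene Tnfsf9 at −0.53 ± 0.41. The sign turned for Tnfrsf18 without control 1 (0.28) or TBI 3 (0.03), and for Tnfrsf9 without control 2 (0.12), TBI 2 (0.05) or TBI 3 (0.05). The ligand genes Cd70, Tnfsf4 and Tnfsf18 had 0 to 1, 0 to 2 and 0 to 6 counts per library, too few for a fold change. In TBI libraries a count of 0 allows up to 0.128 to 0.163 CPM and in controls up to 0.135 to 0.189 CPM, which covers counting error only.

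The members known from connective tissue and muscle had overlapping groups. Tnfsf12, which encodes TWEAK, had 5.73, 7.15, 6.89 and 6.96 CPM after TBI and 5.55, 5.67 and 7.82 CPM in controls (0.07 ± 0.19), and the sign turned without control 1 or control 2 (−0.02 and −0.0018). Its receptor gene Tnfrsf12a, which encodes FN14, known to be induced in injured and denervated muscle, had 8.73, 8.77, 9.54 and 13.5 CPM after TBI and 7.18, 11.4 and 7.51 CPM in controls. TBI 4, with the largest muscle sum, was the highest library, and control 1, with the smallest, was the lowest. TBI 1 to 4 rose in the order of their muscle sums. TBI 3 and control 3 lay below control 2, whose muscle sum was smaller. The part of muscle in these values was not tested. The fold change of Tnfrsf12a was 0.22 ± 0.23, and 0.06 without TBI 4. Tnfrsf19, which encodes TROY, known from progenitor and stromal cells, had 30, 25.3, 38.1 and 39.4 CPM after TBI and 37.2, 40.7 and 32.5 CPM in controls (−0.15 ± 0.17). Eda2r, the receptor of the ectodysplasin A2 form, had 4.56, 4.09, 7.27 and 5.59 CPM after TBI and 4.74, 8.07 and 10.6 CPM in controls (−0.54 ± 0.30), and −0.25 without control 3.

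The TBI libraries differed among themselves in a way many members shared. TBI 1 was the highest TBI library for 19 of the 31 members (61.3%) and for 34% of all genes tested. TBI 3 was the lowest for 15 members (48.4%) and for 25.6% of all genes. Among ligands these counts were 7 and 6 of 10. Summed over all 16 ligands the level was 73.3, 62.9, 43.4 and 48.4 CPM in TBI 1 to 4 and 50.9, 42.6 and 40.7 CPM in controls. Summed over all 21 receptors it was 423.4, 351.5, 332 and 338.9 CPM after TBI and 378.4, 353.6 and 341.6 CPM in controls.

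**Figure D4:**
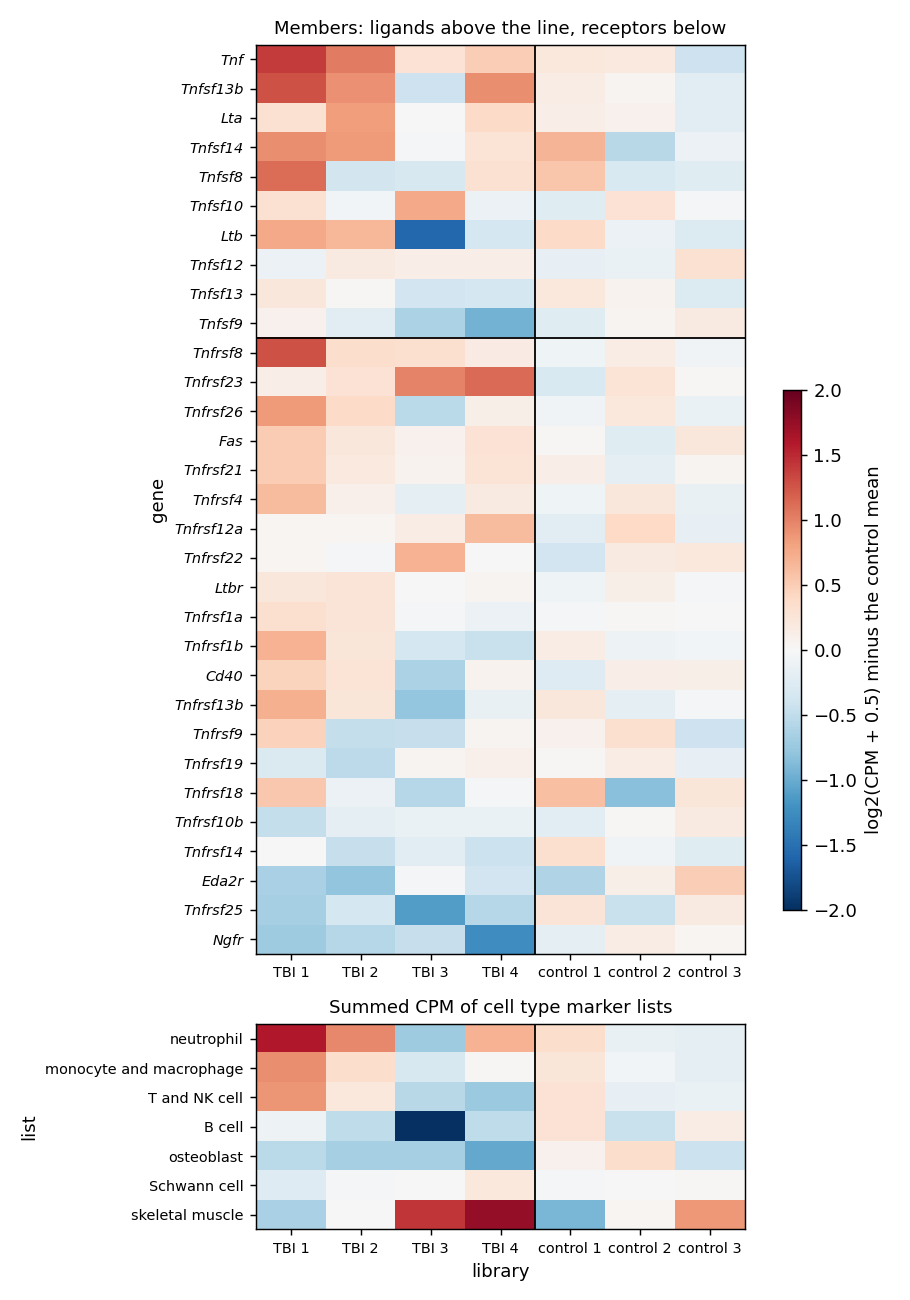
Difference of log2(CPM + 0.5) from the control mean in each library (TBI 1 to 4 left of controls 1 to 3) for the 31 members and for 7 marker list sums, on a colour scale that ends at 2 either way. TBI 1 is red for many ligands and for the neutrophil and monocyte lists, and TBI 3 is blue for Ltb, Tnfrsf13b and the B-cell list.

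Downstream of the receptors, a list of 66 adapters, caspases, kinases, NF-kB subunits, feedback inhibitors, target genes and shedding enzymes was set beside the members. Of its 63 tested genes, 38 had higher and 25 lower estimates, at a median of 0.04, and 0 passed over all genes tested in edgeR. At an unadjusted p under 0.05 there were 3 (4.76%, beside 7.34% of all genes; 2.37% of all genes were higher and 4.97% lower). Nfkb2, the NF-kB subunit processed after lymphotoxin and BAFF signals, had 26.1, 24.8, 22.6 and 21.9 CPM after TBI, against 26.6, 28.7 and 31.7 CPM in controls (−0.28 ± 0.12, adjusted p = 0.67 in edgeR). Every TBI library lay below every control for Nfkb2, as for 5.38% of all genes. Of the 63 tested genes of the list, 2 were separated this way. In the other direction 1 was separated, beside 2.66% of all genes. Rhbdf1, a cofactor of the enzyme that sheds TNF, had 22.4, 32, 33.3 and 29 CPM after TBI and 32.1, 43.1 and 39 CPM in controls (−0.38 ± 0.17), with overlapping groups. The death pathway genes had 8 of 10 estimates higher at a median of 0.19, the adapters 5 of 12 at −0.04, kinases and NF-kB subunits 10 of 15 at 0.04, feedback and target genes 11 of 17 at 0.10 and shedding enzymes 4 of 9 at −0.01. The target genes Cxcl1, Cxcl2 and Il6 did not pass the filter.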

How the data were processed

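RNA was read from crushed mouse femurs with a stranded mRNA library kit, per the labels' protocols. The authors deposited raw read counts for 49671 Ensembl genes, not normalized. STAR, DESeq and GRCm38 are named in the submitters' processing notes. The counting tool and strand setting were not given in the sources used here. The authors' normalized table was not used. Symbols, positions and exon lengths came from GENCODE M21 (GRCm38), which matched 49326 identifiers (99.3%).

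Counts were filtered with filterByExpr, scaled by TMM and tested with edgeR 4.0.16 (glmQLFit and glmQLFTest, R 4.3.3) over 17144 genes. Adjusted p-values are Benjamini-Hochberg values over those genes, called under 0.05. Log2 fold changes run TBI minus control, and standard errors come from the estimate and its F statistic. The steps were tested on simulated data. Libraries of a group differed beyond sampling noise (chi-square per degree of freedom of at least 27.2). Alternatives were RLE and upper-quartile scaling, other filters, DESeq2 1.42.0 on the filtered genes (335 without an adjusted p), limma-voom (limma 3.58.1), the replicate number as a block and each library left out, with TBI 3 and TBI 4 left out together added after seeing the data. The members and all gene lists were chosen with earlier results of these data known. Members with an unadjusted p under 0.05 or separated groups, and a fixed set of 21, are given by library; Lta and Eda2r were added after their values were seen. Downstream genes are named at an unadjusted p under 0.05, of which 1 is not reported here, and other members by their estimates. Marker lists, 14 in all, were summed in CPM. Those whose direction of estimates is not given above ran as follows, as higher estimates of those tested: plasma cell 4 of 7, dendritic cell 4 of 6, chondrocyte 0 of 10, endothelial 7 of 8, erythroid 0 of 8, megakaryocyte and platelet 8 of 8, adipocyte 6 of 6.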

Additional observations from a re-analysis of the deposited data

Results flagged for a closer look

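For 3 members, 1 TBI library stood so far from the others that its gap to the nearest exceeded Dixon's critical value at 95%, as chance does in about 1 in 20 groups; 31 members were examined. Tnfrsf22 had 5.59 CPM in TBI 3 and 3.19 to 3.39 CPM in the other TBI libraries (gap 0.918 of the range). Tnfrsf8 had 1.82 CPM in TBI 1 and 0.58 to 0.724 CPM in the others (0.884). Tnfrsf12a had 13.5 CPM in TBI 4 and 8.73 to 9.54 CPM in the others (0.83). Control groups of 3 were not examined this way. No cause was tested.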

How the results depend on the processing

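No member passed the threshold over all genes under any of the 15 alternatives, while DESeq2 called 103 genes in all. The count at an unadjusted p under 0.05 was 3 to 5 under other scalings, filters and tools (5.69% to 8.06% of all genes), 0 to 6 with 1 library left out (3.36% to 10.2% of all genes) and 12 without TBI 3 and TBI 4 (11.6% of all genes). The ligands that passed the filter differed between some of these settings. The median log2 fold change ran from 0.14 to 0.85 for ligands and from −0.0596 to 0.187 for receptors with 1 library left out. It was 0.69 for ligands without TBI 3 and TBI 4. The cause was not tested. Some estimates turned sign with 1 library left out, and their ranges over the libraries were −0.0596 to 0.2936 for Cd40, −0.1699 to 0.4316 for Ltb, −0.1846 to 0.3088 for Tnfrsf13b, −0.5282 to 0.2798 for Tnfrsf18, −0.1604 to 0.254 for Tnfrsf1b, −0.0214 to 0.326 for Tnfrsf22, −0.3874 to 0.1167 for Tnfrsf9, −0.0167 to 0.2507 for Tnfsf12 and −0.2369 to 0.8497 for Tnfsf8. In limma-voom Ltb was at −0.11. Without TBI 3 and TBI 4, Tnfrsf12a (−0.0079), Tnfrsf18 (0.11), Tnfrsf22 (−0.0415), Tnfrsf9 (0.0366), Tnfsf12 (−0.0045) and Tnfsf13 (0.12) turned. Replicate numbers 1 to 3 are shared between groups, and so few libraries cannot show whether they mark pairs. Deviations of same-numbered libraries correlated at 0.549, −0.0277 and 0.322. TBI 1 and control 1 correlated best with each other, and TBI 3 best with control 3. TBI 2 correlated best with control 1 (0.272) and control 3 best with TBI 4 (0.393). TBI 4 is the only library numbered 4, so with the replicate block it adds nothing to the estimates. In that fit 5 members had an unadjusted p under 0.05 (16.1%, beside 11.1% of all genes). They were Tnf, Tnfrsf25, Tnfsf13b, Eda2r and Tnfrsf21, without Ngfr and Tnfrsf23. The estimates of Ngfr and Tnfrsf23 were −0.87 and 0.52 with the block, and −0.87 and 0.55 without TBI 4. With the block, the medians of ligands and receptors were 0.29 and 0.08. Depth limits Ngfr, Lta, Tnfrsf8 and the 6 members the filter removed.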
